A study of Mus musculus with 15 samples.

Results

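The 36 genes described here carry fatty acids through activation, the carnitine shuttle, oxidation in mitochondria and oxidation in peroxisomes, or regulate these steps. They were found on the arrays through the RefSeq accessions of their probes, all 36 of them, among 20145 genes with a named probe. All 36 were well above background on each of the 15 arrays and were tested, among 13391 genes tested. By role there were 4 acyl-CoA synthetases (Acsl1, Acsl3, Acsl4, Acsl5), 4 genes of the carnitine shuttle (Cpt1a, Cpt2, Slc25a20, Crat), 11 of mitochondrial oxidation, 3 of electron transfer (Etfa, Etfb, Etfdh), 6 of peroxisomal oxidation and 4 peroxins, the proteins that build peroxisomes (Pex5, Pex11a, Pex14, Pex19). The last 4 were regulators, namely the nuclear receptors Ppara, Ppard and Pparg and the coactivator Ppargc1b. Below, the shuttle, mitochondrial oxidation and electron transfer make up the 18 mitochondrial genes, and peroxisomal oxidation and the peroxins the 10 peroxisomal genes.

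The cells were liver macrophages with high F4/80, sorted by CD11c from digested livers of male mice and measured on one-colour (Cy3) Agilent arrays, 5 arrays in each of 3 groups. Wildtype mice on standard diet gave CD11c-negative cells (wildtype below). MC4R-KO mice, which lack the melanocortin 4 receptor and were fed Western diet for 20 weeks from 8 weeks of age, had non-alcoholic steatohepatitis (NASH) and gave both CD11c-negative and CD11c-positive cells. Genotype, diet and disease therefore differ together between wildtype and NASH and cannot be told apart, and no source used here gives the wildtype mice's age. Each RNA was pooled from 7 to 9 mice, and 0.1 ug was labelled. Nothing in the sources says that the 5 pools of a group came from separate sorts, so the p-values measure only how these samples varied, which may be in part technical. A pool with fewer cells of a type and cells with less RNA of a gene cannot be told apart either.

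Fatty acids are first bound to coenzyme A by acyl-CoA synthetases. Long chains enter mitochondria as carnitine esters and are shortened there in rounds of dehydrogenation, hydration, a further dehydrogenation and thiolysis, and the electrons pass through the electron transfer flavoprotein to the respiratory chain. Peroxisomes shorten very long and branched chains with their own enzymes and release hydrogen peroxide, which catalase breaks down. In liver, PPAR-alpha switches on many of these genes in fasting, whereas PPAR-gamma is better known for fat storage and for its part in macrophages that handle lipid, and PGC-1-beta (Ppargc1b) is a coactivator of genes for mitochondria.

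Values below are levels on the log2 scale, the log2 processed signal of a probe minus the 75th percentile of its array, so a level of 0 equals that percentile. Levels of different genes come from different probes and are not set against each other. Differences are differences of group means of these levels ± the limma standard error, n = 5 arrays per group, with Benjamini-Hochberg adjusted p from limma over all 13391 genes and a threshold of 0.05. The 75th percentile signal ranged from 358.6 to 562.4 units over the arrays, and 45.8% to 58.0% of spots were well above background. The arrays lay on 2 slides (8 and 7 arrays), each with all 3 groups. Itgax, which encodes CD11c, averaged 4.21 in wildtype, 5.93 in CD11c-negative and 7.29 in CD11c-positive NASH cells, so it was higher in NASH cells of the negative gate than in wildtype cells. Adgre1, which encodes F4/80, averaged 7.34, 7.74 and 7.31. The probe of Mc4r was not well above background on any array and checks nothing about the knockout. Of 10 macrophage and Kupffer cell markers, 9 had a probe and all 9 were well above background in each group, with a summed level of 11.6 to 11.7 in wildtype, 11.3 to 11.4 in CD11c-negative and 10.9 to 11.0 in CD11c-positive NASH cells. Of these 9, 2 were higher and 6 lower in CD11c-negative NASH than in wildtype cells (median -0.21), and all 9 were lower in CD11c-positive than in CD11c-negative NASH cells (median -0.38). The differences of the 9 markers ran from -2.90 to 0.90 in the first of these comparisons and from -1.82 to -0.22 in the second. Timd4, a receptor of resident Kupffer cells, had the largest fall in the first, with -2.90 and -1.48. The scavenger receptor Marco had the largest fall in the second, with -2.14 and -1.82. The part of these markers in the results below was not tested.

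CD11c-negative NASH macrophages were set against wildtype macrophages first, the comparison of diseased with healthy cells of the same gate. Of the 36 genes, 28 were higher in NASH, 4 were lower (Ehhadh, Pex11a, Ppargc1b and, at only 1 of its 2 probes, Cat) and 4 did not pass (Cpt1a, Cpt2, Eci2, Pex5). Over all genes tested, 48.3% were higher and 28.5% lower, 76.8% in either direction, so a call as such was common on these arrays. The median difference of the 36 genes was 0.35 and that of all genes 0.13. All 5 NASH arrays lay on one side of all 5 wildtype arrays for 31 of the 36 genes (86.1%), against 64.1% of all genes. A difference of at least 0.5 log2 that passed was found for 9 genes that rose (Pparg, Acsl3, Echs1, Slc25a20, Acads, Hadha, Acsl1, Crat and Abcd3) and 2 that fell (Ppargc1b and Ehhadh), against 18.5% and 14% of all genes. Most members thus differed by modest amounts, between Ppargc1b at -1.03 and Pparg at 1.65.

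The direction of the smaller differences rested on the scaling. Quantile normalization moved the median of all genes in this comparison from 0.13 to 0, and with it 19 members were higher and 12 lower, with a median of 0.09. Over all genes the share of calls that were upward went from 62.9% to 48.4%. Counted against the median of all genes, 28 of 36 members lay above it with the 75th percentile and 23 of 36 with quantile normalization. Slide changed the counts less. With slide as a block 28 members were higher and 5 lower, on slide 1 alone 27 and 4, and on slide 2 alone 28 and 3. Of the 13391 genes tested, 6889 were higher and 4106 lower with slide as a block, against 6466 and 3814 without it. On slide 1 alone 6277 were higher and 3718 lower, and on slide 2 alone 6303 and 3453.

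**Figure D1:**
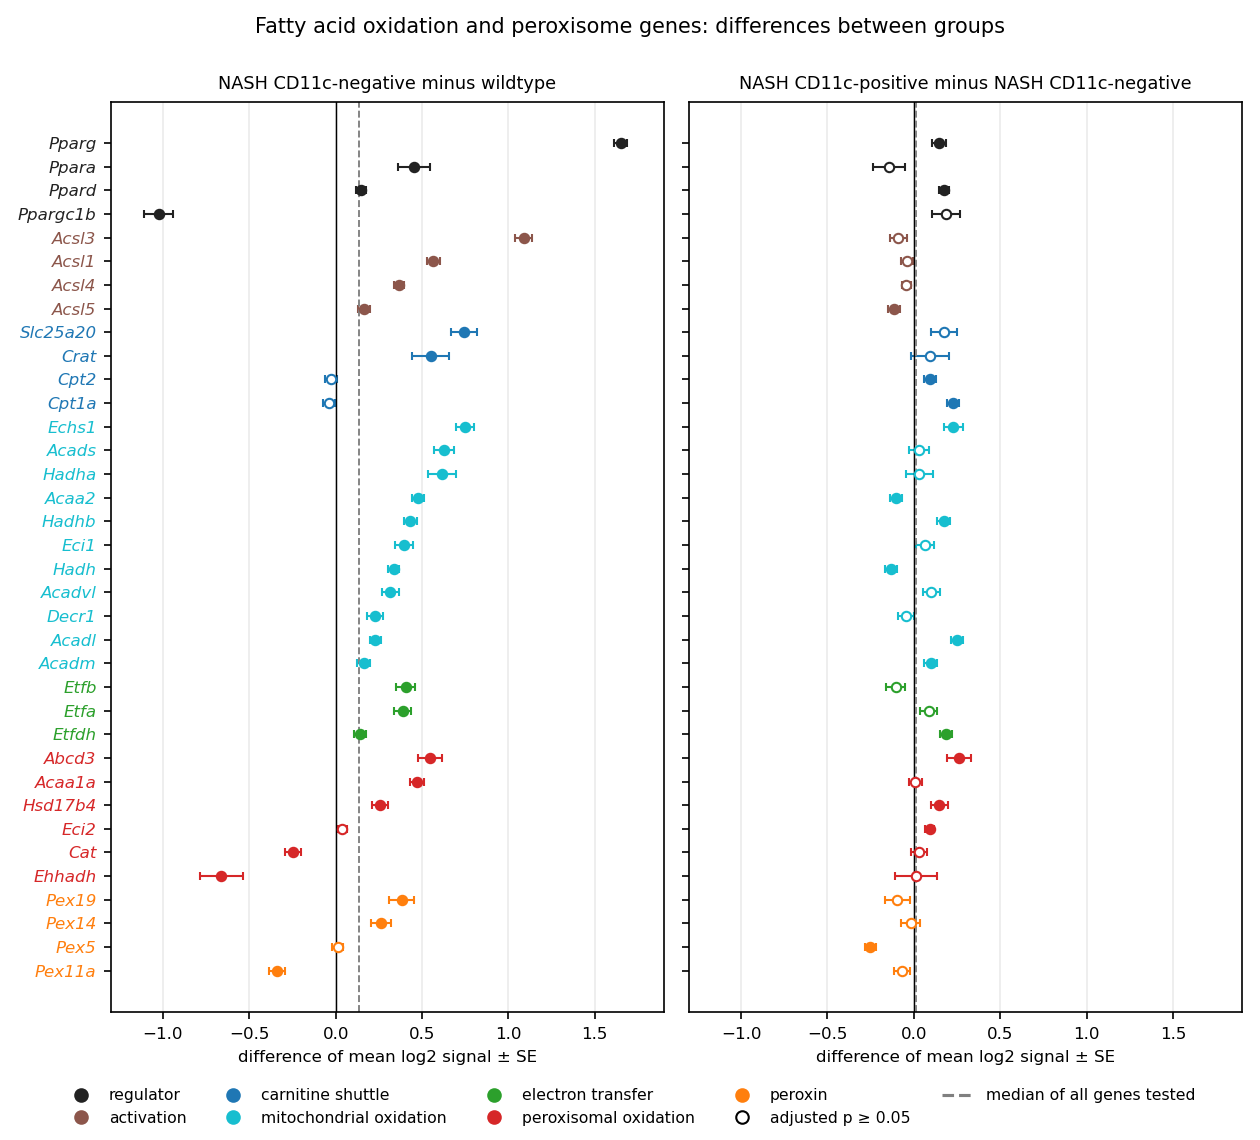
Difference of mean log2 signal ± SE for each of the 36 genes, in CD11c-negative NASH minus wildtype macrophages (left) and in CD11c-positive minus CD11c-negative NASH macrophages (right), coloured by role. Filled points passed at an adjusted p under 0.05 and the dashed line is the median of all 13391 genes. On the left 28 genes are filled on the positive side and Ppargc1b and Pparg mark the ends at -1.03 and 1.65, whereas on the right no gene reaches 0.5 in either direction.

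Promoter sequences are shown for the genes in which a PPAR-type motif was found and for the pair of genes that share a promoter, since these genes are followed below. In the RefSeq promoter table (GRCm38.p6, 250 bases before to 50 after the start of a gene), 30 of the 36 genes were matched. PPAR receptors bind DNA together with retinoid X receptors at direct repeats, here searched on both strands as AGGTCA, any 1 base, and AGGTCA again, with at most 2 mismatches. A match was found in 4 of 30 members (13.3%), Slc25a20, Echs1, Etfa and Cat, and in 4.4% of the 27025 genes of the table. All 4 matches in members had 2 mismatches, the most allowed. The motif of TCA followed directly by AGGTCA, bound by oestrogen-related receptors and sharing that part with the repeat, was searched without mismatch and found in no member and in 0.5% of all genes. The members' promoters were richer in G and C, with a median of 62.0% and 17 CG pairs in a window, against 52.7% and 7 for all genes. A match is a description of letters and no evidence of binding. Each line is 5′ to 3′ on the strand of the gene, with the matched bases in capitals. For Slc25a20 the match lies in bases 7 to 19 of the gene, and the first 30 bases of the gene are given (chr9:108662136-108662165, plus strand). For the other genes the 250 bases before the start are given.
Slc25a20: gaatgtAGGTGAAAGGTCGgcggagccgct
Echs1 (chr7:140116422-140116671, minus strand): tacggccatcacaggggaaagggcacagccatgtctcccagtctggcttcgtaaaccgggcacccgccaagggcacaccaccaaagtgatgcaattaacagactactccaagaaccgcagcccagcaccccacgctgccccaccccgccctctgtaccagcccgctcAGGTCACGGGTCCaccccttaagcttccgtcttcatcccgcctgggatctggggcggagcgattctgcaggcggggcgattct
Etfa (chr9:55512244-55512493, minus strand, match on the opposite strand): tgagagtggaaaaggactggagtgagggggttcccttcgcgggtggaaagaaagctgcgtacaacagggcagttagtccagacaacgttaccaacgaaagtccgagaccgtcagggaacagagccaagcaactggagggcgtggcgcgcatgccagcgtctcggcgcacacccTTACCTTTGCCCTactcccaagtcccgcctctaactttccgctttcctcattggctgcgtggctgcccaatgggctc
Cat (chr2:103485154-103485403, minus strand): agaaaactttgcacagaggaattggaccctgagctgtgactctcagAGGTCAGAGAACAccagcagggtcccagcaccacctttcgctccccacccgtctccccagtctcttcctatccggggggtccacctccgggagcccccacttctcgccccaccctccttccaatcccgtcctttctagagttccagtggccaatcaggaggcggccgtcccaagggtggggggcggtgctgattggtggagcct
In Echs1 the match lies 83 to 71 bases before the start, in Etfa 77 to 65 and in Cat 204 to 192. Hadha and Hadhb, which encode the alpha and beta chains of the mitochondrial trifunctional protein, are transcribed away from each other, and their starts lie 272 bases apart. The window before Hadha, in which neither motif was found, therefore covers most of the interval they share and carries no capitals.
Hadha (chr5:30154981-30155230, minus strand): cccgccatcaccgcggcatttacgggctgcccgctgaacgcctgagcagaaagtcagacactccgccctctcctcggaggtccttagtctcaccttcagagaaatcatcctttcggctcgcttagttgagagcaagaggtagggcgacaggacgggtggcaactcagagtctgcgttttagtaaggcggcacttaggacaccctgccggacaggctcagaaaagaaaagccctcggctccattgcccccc

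Among the regulators, Pparg rose most and Ppargc1b fell most of all 36 genes. Pparg read 2.35, 2.32, 2.35, 2.45 and 2.39 on the wildtype arrays, 4, 3.99, 3.94, 4.11 and 4.07 on the CD11c-negative NASH arrays and 4.13, 4.09, 4.22, 4.2 and 4.2 on the CD11c-positive NASH arrays. Wildtype and NASH arrays were far apart, and the NASH gates overlapped. Pparg was 1.65 ± 0.038 higher in CD11c-negative NASH than in wildtype cells, a 3.14-fold difference (adjusted p = 2.93e-14), and 1.42 higher with quantile normalization. It was a further 0.15 ± 0.038 higher in CD11c-positive than in CD11c-negative NASH cells (adjusted p = 0.00531).

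Ppargc1b went the other way. It read -0.92, -0.9, -1.07, -1.16 and -1.15 in wildtype, -1.99, -2.29, -1.8, -2.22 and -2.03 in CD11c-negative NASH and -1.87, -1.93, -1.91, -1.88 and -1.81 in CD11c-positive NASH cells. Every NASH array lay below every wildtype array. The fall in CD11c-negative cells was -1.03 ± 0.082, or 2.04-fold (adjusted p = 2.78e-08), and -0.99 with quantile normalization. With another background correction (normexp) it was smaller, at -0.58. Between the NASH gates the difference of 0.19 ± 0.082 did not pass (adjusted p = 0.0672). It passed with quantile normalization, at 0.25 (adjusted p = 0.015), but was -0.03 with normexp.

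Ppara, the receptor that drives fatty acid oxidation in fasting liver, was measured by the only one of its 3 probes that passed the filter. It read 0.55, 0.52, 0.46, 0.24 and 0.3 in wildtype, 0.95, 0.87, 1.1, 0.79 and 0.61 in CD11c-negative NASH and 0.87, 0.83, 0.53, 0.78 and 0.61 in CD11c-positive NASH cells. The spread between arrays was wide for this gene, and the CD11c-positive arrays overlapped both other groups. It was 0.45 ± 0.094 higher in CD11c-negative NASH than in wildtype cells (adjusted p = 0.000489) and 0.31 ± 0.094 higher in CD11c-positive NASH than in wildtype cells (adjusted p = 0.0074). The NASH gates differed by -0.14 ± 0.094, which did not pass (adjusted p = 0.222). Ppard, the receptor found in most tissues, read 1.24, 1.28, 1.26, 1.32 and 1.27 in wildtype, 1.47, 1.4, 1.36, 1.47 and 1.41 in CD11c-negative NASH and 1.57, 1.56, 1.58, 1.63 and 1.66 in CD11c-positive NASH cells, in 3 steps with no overlap. The first step of 0.15 ± 0.029 (adjusted p = 0.000342) shrank to 0.03 with quantile normalization and then did not pass (adjusted p = 0.25). The step from CD11c-negative to CD11c-positive cells, 0.18 ± 0.029 (adjusted p = 0.000152), was 0.14 with quantile normalization.

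**Figure D2:**
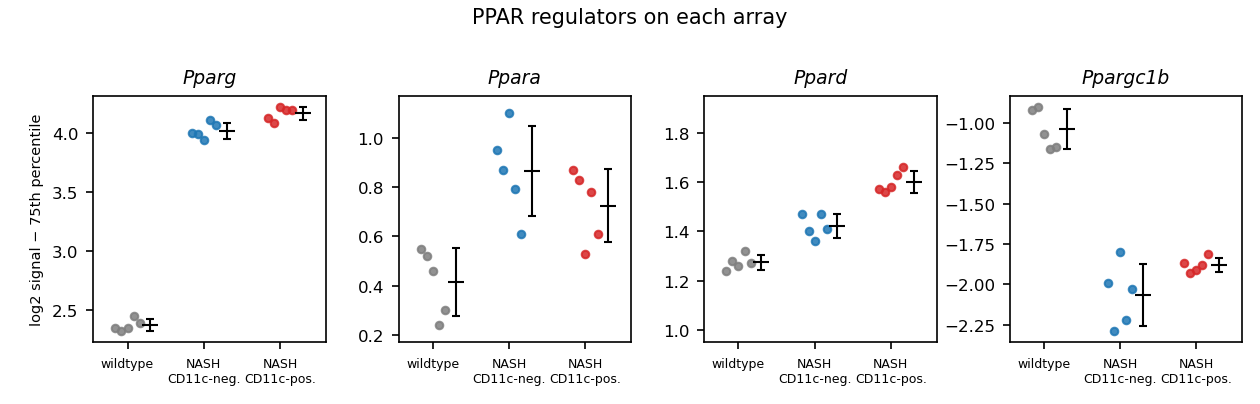
Level of the 4 regulators on each array (points), on the log2 scale relative to the 75th percentile of the array, with the group mean ± SD beside them (n = 5). Pparg lies between 2.32 and 2.45 in wildtype and between 3.94 and 4.22 in NASH cells, and Ppargc1b lies lower in both NASH groups than in wildtype.

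All 4 acyl-CoA synthetases, which activate long-chain fatty acids, were higher in CD11c-negative NASH than in wildtype cells, with Acsl5 reversed by quantile normalization, and none was higher in CD11c-positive than in CD11c-negative cells. Acsl3, an enzyme of the endoplasmic reticulum and of lipid droplets, read -1.3, -1.18, -1.08, -1.3 and -1.36 in wildtype, -0.11, -0.15, -0.19, -0.14 and -0.18 in CD11c-negative NASH and -0.18, -0.18, -0.32, -0.29 and -0.25 in CD11c-positive NASH cells. All wildtype arrays were low and the NASH gates overlapped. The rise was 1.09 ± 0.049, or 2.12-fold (adjusted p = 4.55e-11), 1.12 with quantile normalization and 0.79 with normexp background correction. Acsl1, the main synthetase of fat, liver and heart, read 2.5, 2.43, 2.55, 2.51 and 2.54 in wildtype, 3.04, 3.13, 3, 3.05 and 3.14 in CD11c-negative NASH and 3, 2.99, 3.07, 3 and 3.09 in CD11c-positive NASH cells. It rose by 0.57 ± 0.035, or 1.48-fold (adjusted p = 1.81e-09), by 0.34 with quantile normalization and by 0.50 at its other probe.

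Acsl4, which prefers arachidonate, ranged from 3.76 to 3.84 in wildtype and from 4.08 to 4.21 over both NASH groups. Its rise of 0.37 ± 0.028 (adjusted p = 1.44e-08) came down to 0.09 with quantile normalization. Acsl5 had the smallest difference of the 4 and was higher only by the 75th percentile scaling. It read 3.7, 3.69, 3.77, 3.75 and 3.77 in wildtype, 3.84, 3.89, 3.86, 3.91 and 4 in CD11c-negative NASH and 3.79, 3.74, 3.74, 3.82 and 3.84 in CD11c-positive NASH cells, so the CD11c-positive arrays overlapped those of both other groups. It was 0.16 ± 0.035 higher in CD11c-negative NASH cells (adjusted p = 0.000632) but -0.11 with quantile normalization (adjusted p = 0.0016), and 0.11 lower in CD11c-positive than in CD11c-negative cells, a difference of -0.11 ± 0.035 (adjusted p = 0.0126). Between the NASH gates Acsl1, Acsl3 and Acsl4 differed by -0.04, -0.09 and -0.04, and none of these passed.

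The carnitine shuttle split in the comparison with wildtype. The translocase Slc25a20 and the acetyltransferase Crat were higher in CD11c-negative NASH cells, whereas the palmitoyltransferases Cpt1a and Cpt2 did not pass. Slc25a20, which exchanges acylcarnitines for carnitine across the inner membrane and whose first bases hold a motif match above, read -0.71, -0.7, -0.6, -0.46 and -0.61 in wildtype, 0.04, 0.12, -0.04, 0.2 and 0.32 in CD11c-negative NASH and 0.24, 0.11, 0.39, 0.39 and 0.37 in CD11c-positive NASH cells. Both NASH groups were above wildtype without overlap. The rise was 0.74 ± 0.075, or 1.67-fold (adjusted p = 3.86e-07), and 0.77 with quantile normalization. Between the gates it differed by 0.17 ± 0.075 (adjusted p = 0.0664).

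Crat, which moves acetyl groups between coenzyme A and carnitine, was a dim probe with more spread. It read -2.55, -2.78, -2.52, -2.67 and -2.8 in wildtype, -1.85, -2.34, -2.43, -2.09 and -1.86 in CD11c-negative NASH and -2.07, -1.92, -1.93, -2.01 and -2.19 in CD11c-positive NASH cells. Arrays 2 and 3 of the CD11c-negative NASH group lay nearest to wildtype, yet no array overlapped. The rise was 0.55 ± 0.109 (adjusted p = 0.000349), 0.61 with quantile normalization and 0.25 with normexp background correction, and on slide 1 alone 0.41, which did not pass (adjusted p = 0.055).

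Cpt1a, the outer-membrane transferase that limits entry of long chains into mitochondria, ranged from 3.87 to 3.95 in wildtype, from 3.79 to 3.94 in CD11c-negative NASH and from 4.02 to 4.15 in CD11c-positive NASH cells. Only the CD11c-positive arrays stood apart. The difference from wildtype to CD11c-negative cells was -0.04 ± 0.035 (adjusted p = 0.302), which became -0.32 and passed with quantile normalization (adjusted p = 5.1e-10). CD11c-positive cells were 0.23 ± 0.035 above CD11c-negative cells (adjusted p = 8.14e-05), 0.25 with quantile normalization, and 0.26 at the other probe of the gene. Against wildtype the difference of 0.19 ± 0.035 in CD11c-positive cells (adjusted p = 0.00021) turned to -0.07 with quantile normalization.

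Cpt2, the inner-membrane partner that rebuilds acyl-CoA in the matrix, read 2.66, 2.72, 2.67, 2.76 and 2.75 in wildtype, 2.66, 2.62, 2.65, 2.74 and 2.74 in CD11c-negative NASH and 2.76, 2.75, 2.87, 2.72 and 2.79 in CD11c-positive NASH cells, with overlap between all 3 groups. It differed by -0.03 ± 0.035 from wildtype to CD11c-negative NASH (adjusted p = 0.495), by -0.25 with quantile normalization (adjusted p = 4.7e-07), and by 0.10 ± 0.035 between the gates (adjusted p = 0.0352). Its other, dimmer probe differed by -0.01 in the first comparison (adjusted p = 0.937) and by 0.31 between the gates (adjusted p = 0.0152).

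All 11 genes of mitochondrial oxidation were higher in CD11c-negative NASH than in wildtype cells, with differences from 0.16 to 0.75 and a median of 0.39, although Acadm and Decr1 reversed with quantile normalization and Acadvl no longer passed. The largest was Echs1, the short-chain enoyl-CoA hydratase, whose promoter is shown above. It read 3.62, 3.56, 3.61, 3.72 and 3.74 in wildtype, 4.33, 4.36, 4.28, 4.5 and 4.51 in CD11c-negative NASH and 4.55, 4.57, 4.67, 4.64 and 4.7 in CD11c-positive NASH cells. The groups formed 3 steps without overlap. The first step was 0.75 ± 0.053, or 1.68-fold (adjusted p = 7.77e-09), and the second 0.23 ± 0.053 (adjusted p = 0.00222), and with quantile normalization they were 0.45 and 0.25.

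Acads, the dehydrogenase of short chains, read 0.13, 0.06, 0.06, 0.28 and 0.27 in wildtype, 0.66, 0.79, 0.73, 0.78 and 0.97 in CD11c-negative NASH and 0.79, 0.76, 0.83, 0.88 and 0.83 in CD11c-positive NASH cells. It rose by 0.63 ± 0.059 (adjusted p = 1.89e-07), by 0.60 with quantile normalization, and the gates overlapped and differed by 0.03 ± 0.059 (adjusted p = 0.702). Hadha, the chain of the trifunctional protein with hydratase and long-chain dehydrogenase activity, read 0.72, 0.29, 0.78, 0.67 and 0.72 in wildtype, 1.27, 1.19, 1.17, 1.43 and 1.2 in CD11c-negative NASH and 1.23, 1.27, 1.26, 1.34 and 1.33 in CD11c-positive NASH cells. The second wildtype array was low, at 0.29 against 0.67 to 0.78 on the other wildtype arrays, but all wildtype arrays were below all NASH arrays. The rise was 0.62 ± 0.08 (adjusted p = 5.67e-06) and 0.56 with quantile normalization.

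Hadhb, the thiolase chain that shares the promoter interval of Hadha, ranged from 3.75 to 3.91 in wildtype, from 4.17 to 4.36 in CD11c-negative NASH and from 4.45 to 4.52 in CD11c-positive NASH cells. It rose by 0.43 ± 0.038 in the first step (adjusted p = 9.27e-08) and by 0.17 ± 0.038 in the second (adjusted p = 0.00159), 0.15 and 0.19 with quantile normalization. The second step of Hadha was 0.03 ± 0.08 and did not pass (adjusted p = 0.758), and the difference between the steps of the 2 genes was not tested.

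The acyl-CoA dehydrogenases of longer chains had smaller first steps than Acads, without a test between genes. Acadm, for medium chains, had the smallest difference of the 11 genes. It read 3.29, 3.14, 3.23, 3.28 and 3.25 in wildtype, 3.43, 3.42, 3.27, 3.41 and 3.46 in CD11c-negative NASH and 3.49, 3.49, 3.52, 3.5 and 3.48 in CD11c-positive NASH cells. The third CD11c-negative array, at 3.27, lay among the wildtype values, and the CD11c-positive arrays were above all others. Acadm was 0.16 ± 0.038 higher in CD11c-negative NASH than in wildtype cells (adjusted p = 0.00112) but -0.10 with quantile normalization (adjusted p = 0.0084), and its step between the gates was 0.10 ± 0.038 (adjusted p = 0.0409). Acadl, for long chains, ranged from 1.52 to 1.60 in wildtype, from 1.74 to 1.84 in CD11c-negative NASH and from 1.96 to 2.14 in CD11c-positive NASH cells, with steps of 0.23 ± 0.032 (adjusted p = 1.46e-05) and 0.25 ± 0.032 (adjusted p = 1.54e-05). Quantile normalization gave steps of 0.10 and 0.20 for Acadl. Acadvl, for very long chains, was 0.32 ± 0.048 higher in CD11c-negative NASH (adjusted p = 2.87e-05), which fell to 0.03 with quantile normalization (adjusted p = 0.35).

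The remaining genes of the mitochondrial spiral were Acaa2, Hadh, Eci1 and Decr1. Acaa2, a thiolase, rose by 0.48 ± 0.036 in CD11c-negative NASH cells (adjusted p = 1.51e-08) and Hadh, the dehydrogenase of shorter hydroxyacyl chains, by 0.34 ± 0.034 (adjusted p = 3.56e-07). Quantile normalization gave 0.14 and 0.19 for these genes. Both were lower in CD11c-positive than in CD11c-negative NASH cells, Acaa2 with a difference of -0.10 ± 0.036 (adjusted p = 0.0273) and Hadh with -0.13 ± 0.034 (adjusted p = 0.004), and both stayed above wildtype in CD11c-positive cells, at 0.37 and 0.20, though Hadh by only 0.01 with quantile normalization. Eci1, an isomerase for unsaturated chains, rose by 0.39 ± 0.052 (adjusted p = 6.1e-06), 0.20 with quantile normalization. Decr1, the dienoyl-CoA reductase also needed for unsaturated chains, was 0.23 ± 0.045 higher (adjusted p = 0.000332), but -0.05 with quantile normalization and -0.16 at its other probe, neither of which passed.

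The 3 genes of electron transfer were higher in CD11c-negative NASH cells, although with quantile normalization only Etfa stayed higher. Etfa and Etfb encode the chains of the electron transfer flavoprotein. Etfa, whose promoter holds a motif match on the opposite strand, rose by 0.39 ± 0.05 (adjusted p = 5.52e-06) and by 0.11 with quantile normalization. Etfb was 0.40 ± 0.055 higher (adjusted p = 9.39e-06), which became 0.02 (adjusted p = 0.7). Etfdh, which hands the electrons to ubiquinone, read 2.54, 2.58, 2.54, 2.59 and 2.62 in wildtype, 2.77, 2.69, 2.64, 2.76 and 2.72 in CD11c-negative NASH and 2.87, 2.81, 2.95, 2.93 and 2.95 in CD11c-positive NASH cells, in 3 steps without overlap. Its first step of 0.14 ± 0.034 (adjusted p = 0.00181) turned to -0.08 with quantile normalization (adjusted p = 0.017), and its second step of 0.19 ± 0.034 (adjusted p = 0.000345) stayed at 0.17.

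**Figure D3:**
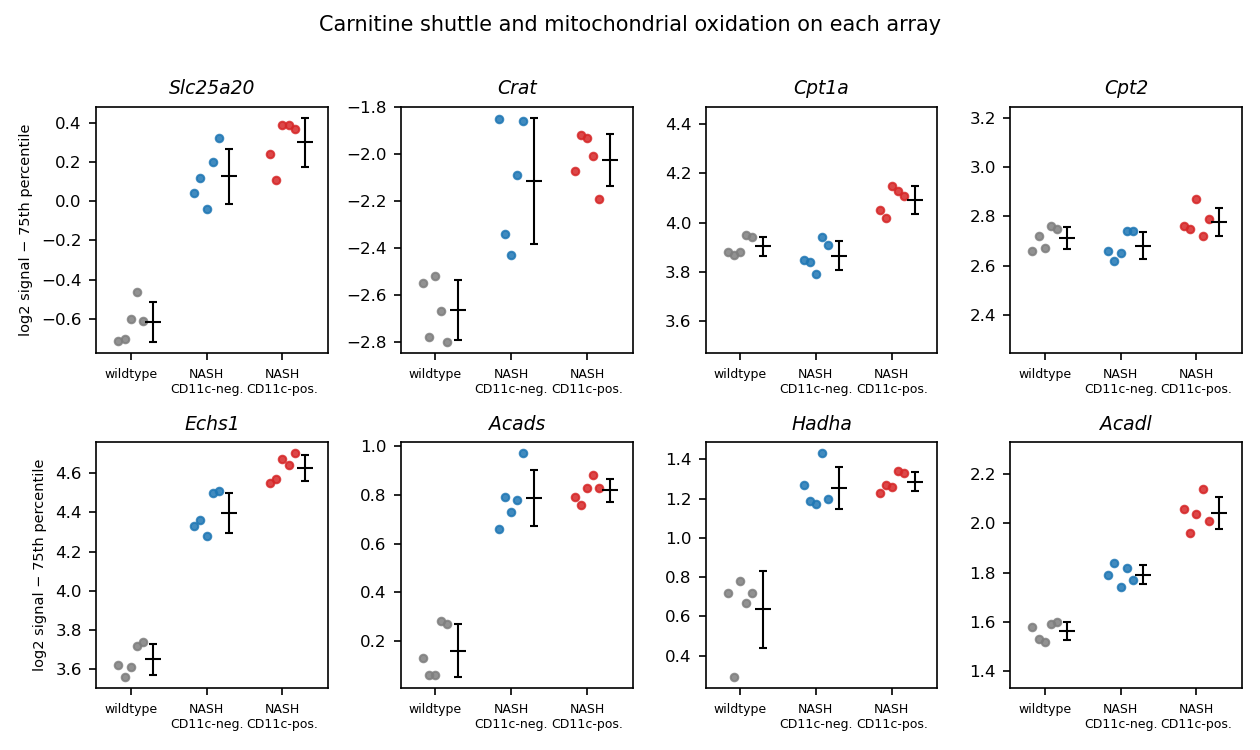
Level of 8 mitochondrial genes on each array (points), on the log2 scale relative to the 75th percentile of the array, with the group mean ± SD (n = 5). Every panel spans its own range. Slc25a20, Crat, Echs1, Acads and Hadha are higher in both NASH groups than in wildtype, and Cpt1a is higher in CD11c-positive NASH cells alone, which with quantile normalization holds against CD11c-negative NASH cells but not against wildtype.

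The peroxisomal genes did not share a direction. Of the 6 genes of peroxisomal oxidation, Abcd3, Acaa1a and Hsd17b4 were higher in CD11c-negative NASH than in wildtype cells, Ehhadh and Cat were lower and Eci2 did not pass, and with quantile normalization Hsd17b4 reversed and Acaa1a did not pass. Abcd3, the transporter that brings acyl-CoA into peroxisomes, read 2.72, 2.72, 2.69, 2.89 and 2.88 in wildtype, 3.26, 3.23, 3.22, 3.47 and 3.45 in CD11c-negative NASH and 3.46, 3.45, 3.7, 3.61 and 3.72 in CD11c-positive NASH cells. The NASH groups were both above wildtype and overlapped each other slightly. The first step was 0.55 ± 0.07, or 1.46-fold (adjusted p = 5.46e-06), and the second 0.26 ± 0.07 (adjusted p = 0.00608), 0.30 and 0.25 with quantile normalization.

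Ehhadh, the bifunctional hydratase and dehydrogenase that in liver is a strong target of PPAR-alpha, read -0.91, -0.99, -0.9, -0.91 and -0.86 in wildtype, -1.69, -1.43, -1.09, -1.97 and -1.71 in CD11c-negative NASH and -1.66, -1.39, -1.69, -1.5 and -1.58 in CD11c-positive NASH cells. The wildtype arrays lay close together and the CD11c-negative NASH arrays were spread out, but all were below wildtype. The fall was -0.66 ± 0.123, or 1.58-fold (adjusted p = 0.000195), -0.62 with quantile normalization and -0.43 with normexp background correction. CD11c-positive cells were lower than wildtype by the same measure, at -0.65 ± 0.123 (adjusted p = 0.000222), and the gates differed by 0.01 ± 0.123 (adjusted p = 0.943). The other bifunctional enzyme, Hsd17b4, which serves branched and very long chains, ranged from 5.32 to 5.46 in wildtype and from 5.56 to 5.83 in CD11c-negative NASH cells. Its difference of 0.26 ± 0.048 (adjusted p = 0.000205) turned to -0.13 with quantile normalization (adjusted p = 0.0029), and its step between the gates was 0.15 ± 0.048 (adjusted p = 0.0181).

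Acaa1a, the peroxisomal thiolase, ranged from 5.67 to 5.79 in wildtype, from 6.12 to 6.28 in CD11c-negative NASH and from 6.12 to 6.25 in CD11c-positive NASH cells. It was 0.47 ± 0.039 higher in CD11c-negative NASH (adjusted p = 4.36e-08), but 0.04 with quantile normalization, which did not pass (adjusted p = 0.1). Eci2, the peroxisomal enoyl-CoA isomerase, read 4.12, 4.11, 4.12, 4.16 and 4.14 in wildtype, 4.17, 4.09, 4.17, 4.16 and 4.25 in CD11c-negative NASH and 4.26, 4.26, 4.25, 4.3 and 4.23 in CD11c-positive NASH cells, with most of the first pair of groups overlapping. It differed by 0.04 ± 0.027 in the first comparison (adjusted p = 0.216), by -0.28 with quantile normalization (adjusted p = 1.5e-07), and was 0.09 ± 0.027 higher in CD11c-positive than in CD11c-negative NASH cells (adjusted p = 0.012).

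Cat, catalase, ranged at its brighter probe from 2.13 to 2.26 in wildtype, from 1.8 to 2.05 in CD11c-negative NASH and from 1.9 to 2.06 in CD11c-positive NASH cells. The difference was -0.25 ± 0.046 in CD11c-negative NASH cells (adjusted p = 0.000208), and -0.41 with quantile normalization. Its other probe gave 0.06 for the same comparison and did not pass, and 0.46 against -0.22 for CD11c-positive NASH minus wildtype, calls in opposite directions. No direction is therefore given for catalase beyond that of each probe.

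The peroxins were no more uniform. Pex11a, which acts in peroxisome division and is induced by PPAR-alpha ligands in liver, ranged from 1.45 to 1.63 in wildtype, from 1.11 to 1.28 in CD11c-negative NASH and from 1.02 to 1.20 in CD11c-positive NASH cells. It fell by 0.34 on the log2 scale in CD11c-negative cells (SE 0.047, adjusted p = 1.09e-05), and quantile normalization gave -0.46. Pex19, the chaperone of peroxisomal membrane proteins, ranged from 0.77 to 1.23 in wildtype, where array 2 was the high one, and from 1.25 to 1.30 in CD11c-negative NASH cells, a rise of 0.38 ± 0.072 (adjusted p = 0.000231). Pex14, part of the docking complex of the importer, rose by 0.26 ± 0.057 (adjusted p = 0.000718). These were 0.30 and 0.20 with quantile normalization.

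Pex5, the receptor that carries most matrix enzymes into peroxisomes, was a member whose change lay between the NASH gates. It read 1.09, 1.01, 1.12, 1.09 and 1.12 in wildtype, 1.13, 1.11, 1, 1.12 and 1.12 in CD11c-negative NASH and 0.88, 0.8, 0.86, 0.86 and 0.84 in CD11c-positive NASH cells. The CD11c-positive arrays lay below all others. The first comparison gave 0.01 ± 0.031 (adjusted p = 0.756), which became -0.08 with quantile normalization (adjusted p = 0.015), and the gates differed by -0.25 ± 0.031, or 1.19-fold (adjusted p = 9.47e-06), and by -0.26 with quantile normalization.

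**Figure D4:**
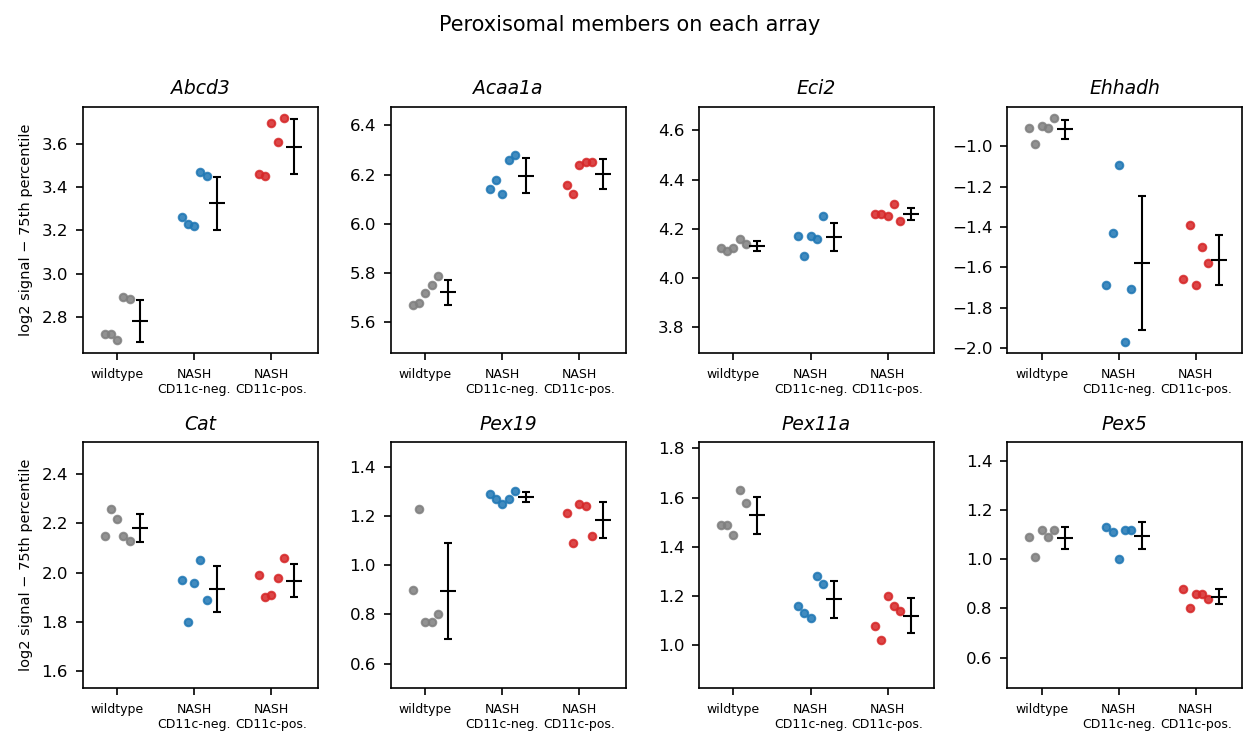
Level of 8 peroxisomal genes on each array (points), on the log2 scale relative to the 75th percentile of the array, with the group mean ± SD (n = 5). Every panel spans its own range. Abcd3 and Acaa1a are higher in NASH cells, Ehhadh and Pex11a are lower, Cat is lower at the probe shown, and Pex5 is lower in CD11c-positive NASH cells alone.

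Set side by side, 16 of the 18 mitochondrial genes were higher in CD11c-negative NASH than in wildtype cells and none was lower, with a median difference of 0.39, while of the 10 peroxisomal genes 5 were higher and 3 lower, with a median of 0.15 against 0.13 for all genes. The 3 lower genes include Cat, whose other probe gave 0.06 and did not pass (adjusted p = 0.441). With quantile normalization the counts were 11 higher and 4 lower of the mitochondrial genes (median 0.12) and 3 higher and 6 lower of the peroxisomal genes (median -0.10), against a median of 0 for all genes. On single arrays, the median deviation of the mitochondrial genes from their wildtype means lay between -0.07 and 0.06 in wildtype, between 0.27 and 0.46 in CD11c-negative NASH and between 0.34 and 0.49 in CD11c-positive NASH cells. For the peroxisomal genes the NASH arrays lay between 0.10 and 0.18 and between 0.07 and 0.23, and for all genes tested between 0.09 and 0.17 and between 0.14 and 0.18. The peroxisomal median was thus near that of all genes on these arrays, and the mitochondrial median was above it. These are descriptions of the genes chosen, without a test of one set against the other.

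**Figure D5:**
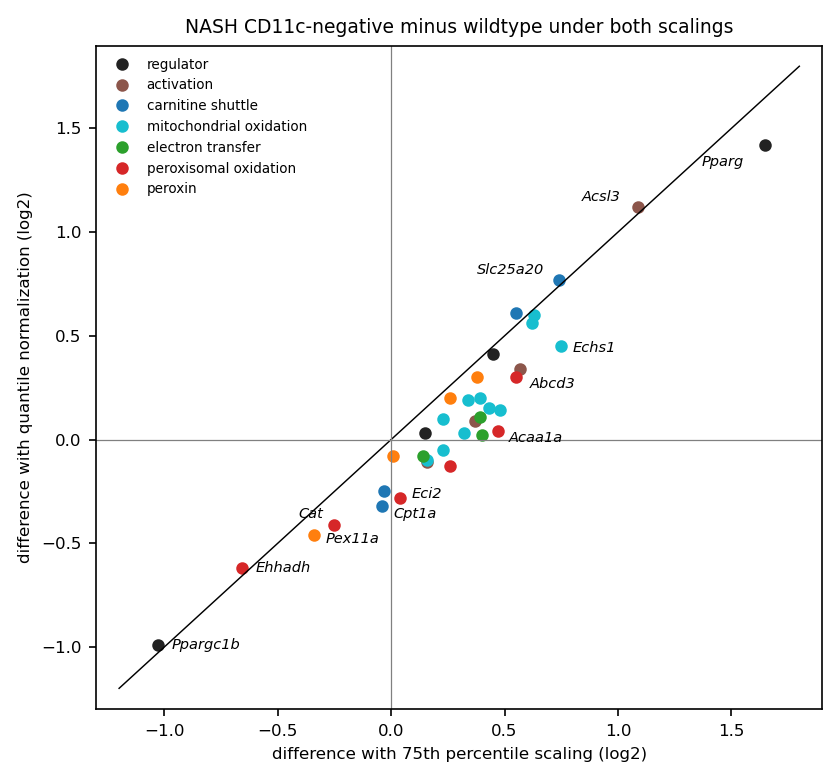
Difference of CD11c-negative NASH minus wildtype macrophages with the 75th percentile scaling (horizontal, log2) and with quantile normalization (vertical, log2) for the 36 genes, coloured by role. The diagonal marks equal values. Most genes lie below it, so that Acaa1a goes from 0.47 to 0.04 and Eci2 from 0.04 to -0.28, while Acsl3, Slc25a20 and Ppargc1b stay near it.

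CD11c-positive and CD11c-negative NASH macrophages, the gates of the same liver disease, differed less. The sources do not say which samples of the gates, if any, came from the same livers. Of the 36 genes 12 were higher in CD11c-positive cells, 4 were lower (Acsl5, Hadh, Acaa2, Pex5) and 20 did not pass, against 29.9% higher, 23.2% lower and 53.1% in either direction over all genes. The groups did not overlap for 10 members (27.8%), and for 39.5% of all genes. No member reached 0.5 log2, which 6.16% of all genes did upward and 5.35% downward. The median difference was 0.05 for the 36 genes and 0.01 for all genes, so in this comparison the members' shares were near or below those of all genes. The range ran from -0.25 for Pex5 to 0.26 for Abcd3.

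The counts moved more with slide here than in the comparison with wildtype. With slide as a block 15 members were higher and 7 lower, on slide 1 alone 11 and 3, and on slide 2 alone 9 and 8. Normexp background correction gave 15 and 1. Counts over the 13391 genes moved as well. They were 4008 higher and 3107 lower without these changes, 4402 and 3971 with slide as a block, and 3512 and 2684 on slide 1 alone. Slide 2 alone gave 3240 and 3210, and normexp 4043 and 3414. Of the 12 members called higher, 8 (Cpt1a, Acadl, Hadhb, Echs1, Etfdh, Abcd3, Ppard, Pparg) held their call in all 29 alternatives, and of the 4 called lower only Pex5 did. The calls of Acadm, Cpt2 and Acaa2 between the gates were close to the threshold. Acadm lost its call when any of 9 arrays was left out (values from 0.06 to 0.10, adjusted p from 0.0508 to 0.0906), the lowest value without replicate 3 of the CD11c-negative group. Cpt2 lost its call without any of 5 arrays (replicates 1, 2 and 3 of the CD11c-negative and 3 and 5 of the CD11c-positive group, adjusted p from 0.065 to 0.0958). Acaa2 lost it without any of 4 (replicates 4 and 5 of the CD11c-negative and 1 and 2 of the CD11c-positive group, adjusted p from 0.0596 to 0.0696). Conversely, Slc25a20 and Acadvl were called higher without replicate 5 of the CD11c-negative or 2 of the CD11c-positive group (0.22 for Slc25a20 either way, 0.12 and 0.13 for Acadvl), Ppargc1b was called higher without replicate 3 of the CD11c-negative group (0.25), and Pex19 was called lower without wildtype replicate 2 (-0.10).

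Read over both comparisons, 9 genes rose in CD11c-negative NASH cells and again in CD11c-positive cells. These were Acadl, Acadm, Hadhb, Echs1, Etfdh, Hsd17b4, Abcd3, Ppard and Pparg. With quantile normalization the first rise was reversed for Acadm, Etfdh and Hsd17b4 and did not pass for Ppard (0.03). A further 16 were higher in the first comparison alone. Of these, Acadvl, Etfb and Acaa1a did not pass with quantile normalization (0.03, 0.02 and 0.04), nor did Decr1, which turned to -0.05. Acsl5, Hadh and Acaa2 were higher in the first and lower in the second, with the first step of Acsl5 reversed by quantile normalization. Cpt1a, Cpt2 and Eci2 passed only in the second comparison, upward, and Pex5 only there, downward. Both comparisons share the CD11c-negative NASH arrays. Of all genes tested, 48.3% were higher and 28.5% lower in the first comparison, and 29.9% and 23.2% in the second. How many of all genes followed each pattern, or had their highest mean in each group, was not counted. The mean was highest in CD11c-positive NASH cells for 20 genes, in CD11c-negative NASH cells for 12 and in wildtype for 4 (Ehhadh, Pex11a, Ppargc1b and the brighter probe of Cat), but neighbouring groups in this order often did not differ beyond their spread, as the 20 genes that did not pass between the gates show.

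CD11c-positive NASH cells against wildtype, which reuses arrays of both comparisons, gave 29 higher, 5 lower and 2 not passed (Acsl5, Cpt2), against 51.3% higher, 26.3% lower and 77.6% in either direction over all genes. The groups did not overlap for 31 members (86.1%) and for 69.3% of all genes. A difference of at least 0.5 log2 passed for 10 members upward and 2 downward, against 21.4% and 14.4% of all genes. The median was 0.33, and 0.16 for all genes. Of the mitochondrial genes 17 were higher and none was lower, and of the peroxisomal genes 6 were higher and 4 lower. Cpt2, at 0.07, passed at its other probe (0.30, adjusted p = 0.0108) and with the mean of its probes (0.19, adjusted p = 0.0138). The 4 lower peroxisomal genes include Cat at -0.22, which was higher at its other probe (0.46, adjusted p = 3.82e-05) and with the mean of its probes (0.12, adjusted p = 0.033). The largest values were Pparg at 1.8, Acsl3 at 1.00, Echs1 at 0.98, Slc25a20 at 0.91 and Ppargc1b at -0.84. Quantile normalization left 21 higher and 10 lower, with a median of 0.14, 12 higher and 3 lower among the mitochondrial genes and 3 and 5 among the peroxisomal genes.

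Other genes of the same pathways moved in mixed directions. Of 28 further mitochondrial genes tested, 13 were higher and 5 lower in CD11c-negative NASH than in wildtype cells, with a median of 0.09. Over all genes 48.3% were higher and 28.5% lower, with a median of 0.13. The median of these further mitochondrial genes thus lay below that of all genes. Hsd17b10, a dehydrogenase of branched short chains, rose by 0.64 and Ech1, an isomerase of dienoyl chains, by 0.63 (0.34 and 0.39 with quantile normalization). Bdh1, an enzyme of ketone body exchange, differed by -0.70 and Cpt1b, the muscle form of the carnitine transferase, by -0.65, or -1.81 at its other probe. Of 49 further peroxisomal genes tested, 26 were higher and 11 lower, with a median of 0.12. Decr2, the peroxisomal dienoyl-CoA reductase, rose by 0.84, and Acot4, a thioesterase, by 1.78, though only 2 of 5 wildtype arrays were well above background for Acot4. Abcd4, a transporter now placed in lysosomes, differed by -1.22. Nudt12, a hydrolase of nucleotide cofactors, was not well above background on any NASH array and was at least 1.36-fold lower in CD11c-negative NASH than in wildtype cells, a bound set by the dimmest probe that was still detected on each array.

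Of 18 further regulators tested, 8 were higher and 4 lower in CD11c-negative NASH cells, with a median of 0.04. For all genes the shares were 48.3% and 28.5% and the median was 0.13. The retinoid X receptors, partners of the PPARs, went different ways. Rxra differed by -0.64 (-0.65 with quantile normalization, -0.39 at its other probe). Rxrg differed by 0.56 (0.29 with quantile normalization), or -1.39 at its other probe. Lpin1, which works with PGC-1 proteins and makes diacylglycerol, rose by 0.49, and the coactivator Ncoa1 differed by -0.47. Of 18 known PPAR targets tested outside the 36 genes, 11 were higher and 3 lower, with a median of 0.70. Angptl4, a secreted inhibitor of lipoprotein lipase, rose by 2.61, and Plin2, a coat protein of lipid droplets, by 1.61 (2.49 and 1.18 with quantile normalization). Pnpla2, the main triglyceride lipase, differed by -0.27 (-0.59 with quantile normalization).

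Between the NASH gates, 5 of the 28 mitochondrial genes were higher in CD11c-positive cells and 7 lower, with Acss1, a mitochondrial acetyl-CoA synthetase, at 1.33 and Acot2, a thioesterase, at 0.32, and with Acad10 at -0.34 and Cpt1b at -0.35 (0.40 at its other probe). Of the 49 peroxisomal genes 12 were higher and 7 lower. Pex11g, a relative of Pex11a, differed by 0.38 and Abcd2, a transporter of very long chains, by 0.28. Agxt, an enzyme of glyoxylate, differed by -1.34 with overlapping groups and only 3 of 5 CD11c-positive arrays well above background. Nudt12 differed by -0.65 (adjusted p = 0.00765) but was not well above background on any array of either gate. Among 18 regulators 5 were higher and 3 lower, with Lpin1 at 0.79. Acaca, which makes the malonyl-CoA that inhibits Cpt1a, differed by 0.41 (-0.07 at its other probe). Rxra differed by -0.34 (-0.095 at its other probe) and Rxrb by -0.14. Of the 18 PPAR targets 6 were higher and 7 lower. Over all genes, 29.9% were higher and 23.2% lower between the gates. The fatty acid receptor Cd36 and Angptl4 both differed by 0.41, G0s2, an inhibitor of triglyceride lipase, by -1.36 and Pdk4, which restrains pyruvate oxidation, by -0.77.

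Markers of other cell types differed between the groups as well. Over all genes, 48.3% were higher and 28.5% lower in CD11c-negative NASH than in wildtype cells. Between the NASH gates these shares were 29.9% and 23.2%. Hepatocytes are rich in the enzymes described here. Of 17 hepatocyte markers tested, 5 were higher and 9 lower in CD11c-negative NASH than in wildtype cells, with a median of -0.22, and none was higher and 14 were lower in CD11c-positive than in CD11c-negative NASH cells. The summed level of the 18 hepatocyte markers with a probe ran from 8.18 to 8.27 in wildtype, from 8.33 to 8.46 in CD11c-negative NASH and from 8.10 to 8.19 in CD11c-positive NASH cells. Cps1 was not well above background on any CD11c-negative NASH array. Of 9 neutrophil markers 8 were higher and 1 lower in CD11c-negative NASH than in wildtype cells. The summed level of the 9 ran from 8.70 to 8.76, from 10.6 to 10.8 and from 9.34 to 9.41 in the 3 groups. Monocyte markers summed to 6.11 to 6.22, 7.29 to 7.42 and 6.5 to 6.59, and dendritic cell markers to 5.16 to 5.25, 4.37 to 4.52 and 5.52 to 5.63. In CD11c-negative NASH against wildtype cells 3 of 5 monocyte markers were higher and 1 lower, and 6 of 7 dendritic cell markers were lower and none higher. Of the dendritic cell markers 6 of 7 were higher in CD11c-positive than in CD11c-negative NASH cells and none lower. Endothelial, T and NK cell and B cell markers were mostly lower in CD11c-negative NASH than in wildtype cells (7 of 8, 8 of 10 and 4 of 5 lower). Among them 1 endothelial and 1 T and NK cell marker were higher. Of 6 stellate cell markers 4 were higher and 1 lower. The part of such cells in the values of the 36 genes was not tested.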

How the data were processed

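Per the file headers, spot intensities in the scanner output had been background-subtracted and detrended but not scaled between arrays, and Agilent Feature Extraction 10.7.3.1 is named in the submitters' processing notes. The deposited log2 values were used as an alternative only and matched the 75th percentile scaling with the median of the wildtype arrays removed (median absolute difference 0.00146). Per array, 3671 control spots and 113 to 190 outlier spots of 62976 were left out. Saturation was absent. The log2 processed signal minus the array's 75th percentile was averaged over spots of a probe. Probes well above background on at least 4 of 5 arrays of a group were kept, and the brightest probe stood for its gene. limma 3.58.1 (in R 4.3.3) fitted group means to all 15 arrays, 2-sided, after a test on simulated data. Up to 29 alternatives changed the background, scaling, filter, slide, block, probes, prior, values or arrays used. Members and lists were chosen with earlier results of these data known. Genes were given on every array when they passed at 0.5 log2, regulate, or differed least in their role, and other lists by the 2 largest rises and falls, of which 1 gene is not reported here. Protein sequences were not analysed here. Promoters were searched in Python 3.11.15. Precision is limited by the number of arrays.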

Additional observations from a re-analysis of the deposited data

Results flagged for a closer look

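The 6 values below are listed because a single array stood apart from the other 4 of its group by Dixon's criterion, among 108 groups of 5 arrays examined. Chance alone gives about 1 in 20 groups. Levels are on the log2 scale relative to the 75th percentile.

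Acadm, the medium-chain dehydrogenase, read 3.27 on replicate 3 of the CD11c-negative NASH cells, where the other arrays read 3.41 to 3.46. Pex5, the import receptor, was also low on that array, at 1 against 1.11 to 1.13. Hadha read 0.29 on wildtype replicate 2 against 0.67 to 0.78. Hsd17b4 read 5.32 on wildtype replicate 3 against 5.43 to 5.46. Hadhb was high on replicate 5 of the CD11c-positive NASH cells, at 4.52 against 4.45 to 4.47, and Pex14 was low on that array, at 0.82 against 1.04 to 1.12. With each of these arrays left out, the differences of these genes from wildtype kept their direction and call, as did that of Pex5 between the NASH gates, whereas Acadm lost its call between the gates.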

How the results depend on the processing

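Leaving out each array in turn kept 28 higher and 4 lower members in CD11c-negative NASH against wildtype and 29 and 5 in CD11c-positive NASH against wildtype, and gave 10 to 14 and 3 to 5 between the NASH gates. The median differences of all, mitochondrial and peroxisomal genes then ranged from 0.34 to 0.37, 0.37 to 0.42 and 0.13 to 0.16 in the first comparison, from 0.04 to 0.08, 0.06 to 0.11 and -0.01 to 0.02 between the gates and from 0.32 to 0.35, 0.42 to 0.46 and 0.17 to 0.22 in the last. Over the 36 genes, 3 comparisons and 29 alternatives, 3021 values counted as unchanged, 50 lost a call, 43 gained one and 18 reversed. Values that did not pass before or after could count as unchanged although their sign changed. Ppargc1b between the gates, at 0.19 and at -0.03 with normexp, was such a case. Quantile normalization gave 12 lower members and medians of 0.09, 0.12 and -0.10 in the first comparison, and 10 lower and medians of 0.14, 0.18 and -0.05 in the last, where the upward share of all calls went from 66.2% to 53.5%. In the first comparison it reversed Acsl5 (-0.11), Acadm (-0.10), Decr1 (-0.05), Etfdh (-0.08), Hsd17b4 (-0.13), Eci2 (-0.28) and Pex5 (-0.08), of which Eci2 and Pex5 had not passed, and in the last Acsl5 (-0.21), Cpt1a (-0.07), Cpt2 (-0.18), Acadm (-0.01), Decr1 (-0.09), Etfb (-0.03) and Eci2 (-0.17). The second brightest probe reversed Decr1 (-0.16) and Cat (0.06) in the first comparison and Cat (0.46) in the last, where the mean of its probes gave 0.12 and the peroxisomal median was 0.27. Normexp gave medians of 0.30 for all and 0.33 for mitochondrial genes in the first comparison, slide 2 alone a mitochondrial median of 0.35. Between the gates the lower members were 1 with normexp, 7 with slide as a block and 8 on slide 2 alone. Of the 13391 genes, 3414, 3971 and 3210 were lower in these settings. The cause of these shifts was not tested.

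Replicate numbers recur in the groups, and same-numbered samples deviated together only in part. Their correlations ran from 0.06 to 0.37, -0.20 to 0.29 and -0.17 to 0.27 in the 3 comparisons. Both negative values were those of replicate 3, whose CD11c-positive array lay on the other slide. A sample matched its own number best in 2, 3 and 3 of 5 pairs. The sources do not say how the numbers relate, and they were not taken to pair the samples. With the replicate block the counts were 28 and 4, 14 and 5, and 29 and 5. With the replicate block and slide together 8 members were lower between the gates, as were 3846 of the 13391 genes.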
